A study of Ettlia oleoabundans with 10 samples.

Results

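Ettlia oleoabundans is a single-celled green alga that stores oil. The results concern the last step of nitrate limitation in this alga, from 0.75 mM nitrate to no nitrate, and rest on 2 of the 10 libraries of the series. The libraries were assigned by their labels, that labelled 0mM nitrate being set against that labelled 0.75mM nitrate. The comparison itself was picked with earlier results of these data known. In it, every scaffold family whose value averaged 1 or more in the pair was compared. This kept 8725 of the 10122 families in the deposited table. The features of the table are called scaffold families. They carry numeric identifiers, which the table does not pair with gene names or functions, and how they were formed is not stated.

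All cultures were strain UTEX 1185, started at 1000000 cells per ml in modified Bold Basal Medium with vitamins B1 and B12. They were kept 6 days at 25 °C on light alone, lit without a dark phase at 22 to 28 µmol photons m-2 s-1. Besides the pair, the series holds nitrate cultures of 0.38, 1.5 and 3 mM, a control of 9 mM nitrate with 42 mM NaCl, and cultures of 75, 150, 300 and 600 mM NaCl. The labels give no NaCl concentration for the nitrate cultures other than the control, and no nitrate concentration for the cultures of 75 to 600 mM NaCl. A condition is 1 library throughout. Values therefore carry no replicate error, no difference between conditions has a test, and every "higher" or "lower" describes these libraries only.

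Nitrogen is needed for protein, chlorophyll and nucleic acids. In green algae, nitrogen starvation is known to stop cell division, to lead to the breakdown of chlorophyll and photosynthetic proteins and of other nitrogen-rich cell material, and to shift fixed carbon into starch and storage oil. Genes for the uptake of nitrate and other nitrogen sources, for autophagy and for oil synthesis are known to respond to it. Which families here belong to these functions was not analysed, because no family could be given a name. For the same reason the nitrate labels could not be checked against genes known to respond to nitrate.

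The values are expression levels scaled by the authors, recorded as a signal without a read depth, and neither a counting interval nor a detection limit could be given. Values are relative within a library, so that less RNA of a family per cell and fewer cells holding it cannot be told apart. A library total here is the sum of the deposited values of a library, and every share of a total is a share of that sum. The totals were 593277.95 without nitrate and 473975.48 with 0.75 mM, within the range of 362924.25 to 695912.6 over the 10 libraries. There were 802 families listed at 0 without nitrate and 783 with 0.75 mM. The title codes of the pair are c6 and c7, whereas codes that begin with RAA mark those of 0.38 mM nitrate and 150 mM NaCl. The sources used here do not say what the codes mean. The library of 0.38 mM is therefore shown beside the pair and was not used for the difference.

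Differences were taken on log2(value + 1) after each library had been centred on the median of the families compared. The median was 4.48 without nitrate and 4.41 with 0.75 mM. Before centring, the median difference over families was 0.12, and after it the median was 0.05. A difference of 1 is 2-fold on this scale, which understates the change of families with low values.

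Without nitrate, 612 families were at least 2-fold higher than at 0.75 mM (7.01% of 8725) and 1100 were at least 2-fold lower (12.6%). The families with the largest differences lay mostly on the lower side. At 4-fold, 75 families were higher (0.86%) and 392 lower (4.49%), and at 8-fold 21 were higher and 172 lower. At 16-fold, 2 were higher and 65 lower. At 32-fold 28 families were lower and 0 were higher, and the difference of the furthest family on the higher side was 4.34. Most families differed little: 5238 of them, or 60%, were within 1.5-fold, and the quartiles of all differences were -0.47 and 0.46. On the higher side the smallest difference counted was 1.0003 and the largest not counted was 0.9999. On the lower side these were -1.001 and -0.9971. The 20 families just above the minimum mean value had a median difference of -0.50, and the 20 just below it, which were not compared, had -0.52.

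The division between higher and lower depended on the scaling, while lower families outnumbered higher ones at 2-fold under each scaling tried. With equal library totals, 357 families were higher and 1414 lower, so that the higher ones were 20.2% of those counted in place of 35.7%. With the deposited values as they stand, 731 were higher and 1015 lower. A pseudocount of 5 in place of 1, which weighs low values less, left 402 higher and 635 lower.

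**Figure D1:**
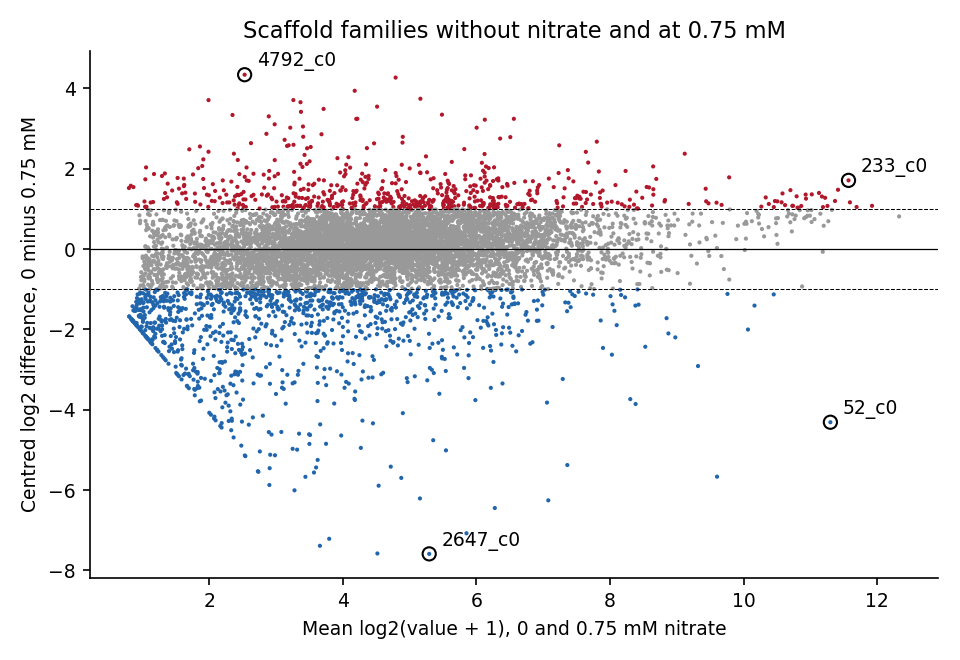
Each point is 1 of 8725 scaffold families, with its mean log2(value + 1) over the libraries of 0 and 0.75 mM nitrate on the horizontal axis and its centred log2 difference, 0 minus 0.75 mM, on the vertical axis. Red points are at least 2-fold higher at 0 mM (612), blue points at least 2-fold lower (1100), dashed lines mark 2-fold, and the 4 named families are circled; the lower tail reaches -7.59 and the upper 4.34.

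The 4 named families were taken by a rule: in each direction the family with the largest difference among those with a mean value of at least 5, and the family with the largest change in its share of the library total.

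Family 4792_c0 had the largest difference on the higher side, 4.34 on the log2 scale. Its value was 25.68 without nitrate, 0.41 with 0.38 mM, 0.25 with 0.75 mM, and then 0.68 with 1.5 mM, 0.36 with 3 mM and 0.5 in the control. It was thus low in the 5 libraries labelled 0.38 to 9 mM nitrate and high in the one without. With a pseudocount of 0.1 its difference was 6.12, and with one of 5 it was 2.48. In the NaCl series its value was 3.55 with 75 mM, 4.03 with 150 mM, 13.84 with 300 mM and 19.46 with 600 mM, so all 4 of these libraries lay above the 5 nitrate libraries of 0.38 to 9 mM and below that of 0 mM. The other family at least 16-fold higher, 4731_c0, was picked for its position once the values were known. It had 123.72 without nitrate, 24.29 with 0.38 mM and 5.14 with 0.75 mM, with 3.35 to 4.12 from 1.5 to 9 mM nitrate. At 300 mM NaCl its value was 145.63, above that without nitrate, and at 75, 150 and 600 mM it was 38.39, 53.82 and 67.33.

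Family 233_c0 had the largest gain in share. It made up 0.346% of the library total at 0.75 mM and 0.952% without nitrate, and ranked 18 and 3 among all families. At 0.38 mM it ranked 4, with 0.481% of the total and a centred difference from 0.75 mM of 0.31, so the rank is not particular to the library without nitrate. Its value was 5650.54 without nitrate, 1745.89 with 0.38 mM, 1638.97 with 0.75 mM, and then 1581.44 with 1.5 mM, 1434.69 with 3 mM and 1032.67 in the control. Under NaCl it was 1928.58 with 75 mM, 1620.09 with 150 mM, 2044.39 with 300 mM and 874.05 with 600 mM. The library without nitrate stood apart from the 9 others, which spanned 874.05 to 2044.39, and the centred difference from 0.75 mM was 1.71, or 3.27-fold.

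Family 2647_c0 had the largest difference on the lower side, -7.59. Its value was 1.9 without nitrate, 10.11 with 0.38 mM and 529.31 with 0.75 mM, against 22.07 with 1.5 mM, 14.67 with 3 mM and 35.68 in the control. The library of 0.75 mM was the high one: the other 9 libraries lay between 1.59 (600 mM NaCl) and 42.84 (75 mM NaCl). The difference of 2647_c0 thus sets a peak at 0.75 mM against a low value at 0 mM.

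Family 52_c0 had the largest loss of share, from 2.31% of the total at 0.75 mM, where it was the most abundant family, to 0.0977% without nitrate. Its value was 579.83 without nitrate and 10951.96 with 0.75 mM, a difference of -4.31, or 19.9-fold. In the 2 libraries with RAA codes it was lower still, 28.16 with 0.38 mM nitrate and 43.32 with 150 mM NaCl. The other 6 libraries had 5765.95 (600 mM NaCl) to 11361.12 (300 mM NaCl). What part the RAA codes have in these values was not tested.

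**Figure D2:**
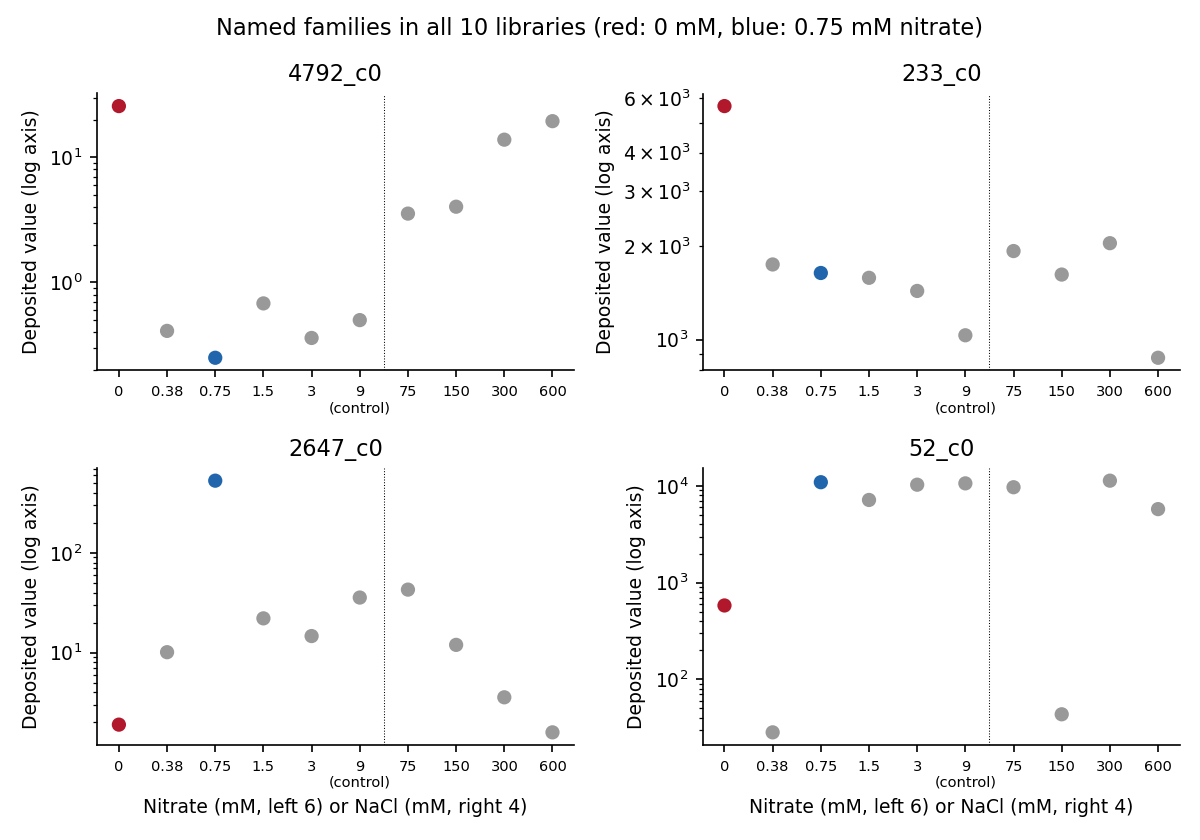
Deposited value, on a logarithmic axis, of the 4 named families in each of the 10 libraries, with 6 nitrate libraries left and 4 NaCl libraries right of the dotted line; each point is 1 library, red for 0 mM and blue for 0.75 mM nitrate. The red point is the highest for 4792_c0 (25.68) and 233_c0 (5650.54), and for 2647_c0 the blue point (529.31) stands above the other libraries.

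Most of the abundant families were higher without nitrate, by a similar amount. To choose them without the pair, the 50 families with the highest mean value over the other 8 libraries were taken, a choice made after the data were seen. Of these 50, 41 were higher without nitrate than at 0.75 mM, 19 of them at least 2-fold, and 9 were lower, 5 of them at least 2-fold. Of all 8725 families compared, 4597 were higher and 4128 lower, with 7.01% at least 2-fold higher and 12.6% at least 2-fold lower. Their median difference was 0.85 with quartiles of 0.58 and 1.08, and 36 of the 50 had a difference between 0.5 and 1.5, whereas the median of all families compared was 0.05. Their lowest difference was -5.67 and their highest 2.58. Of the 100 families most abundant elsewhere, 80 were higher at 0 mM, with a median of 0.79. Between 0.38 and 0.75 mM the median difference of the 50 families was -0.08.

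The 50 families held 20.6% of the library total at 0 mM, 13.8% with 0.38 mM and 16% with 0.75 mM. In the other nitrate libraries they held 18.3% with 1.5 mM, 18.3% with 3 mM and 17.7% in the control. Set against the mean centred level of 1.5, 3 and 9 mM, their median was 0.74 without nitrate, -0.25 with 0.38 mM and -0.22 with 0.75 mM. The quartiles were -0.21 and 1.12 without nitrate, and -0.41 and 0.03 with 0.75 mM. In its median, the step from 0.75 to 0 mM thus began below the cultures of 1.5 to 9 mM, called replete here, and ended above them. Not every one of the 50 families did so. In the NaCl series the same median was 0.20 with 75 mM, -0.08 with 150 mM, 0.32 with 300 mM and -0.45 with 600 mM. With the 50 families taken over the pair itself, 24 were at least 2-fold higher and 2 lower, but that choice favours families that are high in one of the pair.

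Differences followed abundance across the whole table. Families were placed in 5 bins of equal size by their mean log2 level over the pair. In the lowest bin, with a median mean value of 3.74, 29.5% of families were at least 2-fold lower at 0 mM and 5.9% higher, and the median difference was -0.43. The median difference was -0.04, 0.11 and 0.16 in the bins between, and 0.27 in the highest bin, where 7.45% were lower and 11.6% higher. These bins use the libraries compared, and a family that is low in one of them falls into a lower bin. With bins from the other 5 libraries that are not replete, chosen after seeing the data, the median difference went from -0.45 in the lowest bin to 0.25 in the highest, and 31.7% of the lowest bin were at least 2-fold lower at 0 mM, against 6.36% of the highest. With bins from all 8 other libraries, also chosen after seeing the data, the median difference went from -0.40 to 0.19. There 29.5% of the lowest bin were lower and 7.45% higher, and 8.54% of the highest were lower and 9.57% higher. The libraries themselves showed such slopes to different degrees in the bins of the pair. Against the mean of 1.5, 3 and 9 mM nitrate, the median difference went from -0.40 in the lowest bin to 0.33 in the highest at 0 mM nitrate, and from -0.34 to 0.17 with 300 mM NaCl. It went the other way in the 2 RAA-coded libraries, from 0.21 to -0.10 with 0.38 mM nitrate and from 0.20 to -0.10 with 150 mM NaCl. In libraries without an RAA code it went from 0.06 to -0.07 with 600 mM NaCl and from -0.12 to 0.08 with 75 mM. For 0.75 mM nitrate every bin lay between -0.09 and 0.08. In the bins from the other 5 libraries the slope of 0 mM nitrate was less steep, from -0.26 to 0.19, and 0.75 mM nitrate had 0.20 in the lowest bin and -0.04 in the highest. In the bins from all 8 others, which include the replete cultures, 0 mM went from -0.19 to 0.07 and 0.75 mM from 0.22 to -0.07. When differences were centred within 20 bins of abundance, an alternative chosen after seeing the data, 576 families were at least 2-fold higher and 982 lower, within 1.5 times the 612 and 1100 above. The median of the 50 families most abundant elsewhere was then 0.46 in place of 0.85. With 1 library per culture, a slope of the culture and one of its library cannot be told apart.

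**Figure D3:**
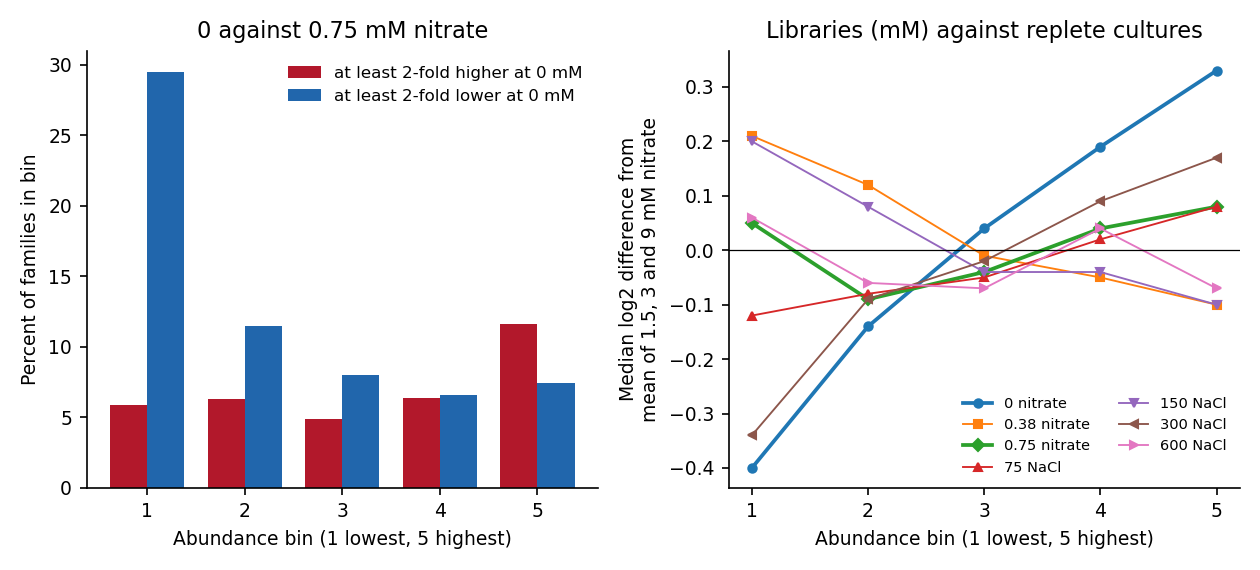
Left, percent of families in each of 5 abundance bins (1745 families each) that were at least 2-fold higher (red) or lower (blue) at 0 than at 0.75 mM nitrate; right, median log2 difference of each library from the mean of 1.5, 3 and 9 mM nitrate in the same bins, 1 line per library. The share of lower families goes from 29.5% in bin 1 to 7.45% in bin 5, and the line of 0 mM nitrate goes from -0.40 to 0.33.

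The 2-fold groups were also summed within each library. The 612 higher families held 12.9% of the total at 0.75 mM and 26.8% without nitrate, and 23 of them made up at least 50% of their sum at 0 mM. The 1100 lower families held 17.2% with 0.75 mM and 3.08% without nitrate. Without 233_c0 and 52_c0 these shares were 12.5% and 25.9% for the higher families, and 14.9% and 2.98% for the lower ones. The size of the higher group's share depended on which abundant families passed 2-fold: with equal totals it was 5.32% with 0.75 mM and 13.1% without nitrate, and with centring in bins it was 3.03% and 8.19%. That higher families gain share and lower ones lose it follows from how they were chosen.

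The same families had these levels in the libraries that were not used to choose them. The higher families had a median centred level of 1.17 without nitrate and -0.28 with 0.75 mM, and of 0.18 with 0.38 mM, -0.16 with 1.5 mM, -0.25 with 3 mM and -0.14 in the control. In the NaCl series their median was 0.32 with 75 mM, 0.54 with 150 mM, 0.52 with 300 mM and 0.55 with 600 mM. In 1.5, 3 and 9 mM the higher families were thus near their level at 0.75 mM, and in all 4 NaCl libraries their median lay above that of the nitrate libraries other than 0 mM. The lower families had a median of -2.24 without nitrate and -0.27 with 0.75 mM, and of -1.24 with 0.38 mM, -0.91 with 1.5 mM, -0.92 with 3 mM and -0.70 in the control. Under NaCl the median was -1.09 with 75 mM, -1.31 with 150 mM, -1.91 with 300 mM and -1.39 with 600 mM. Each of these medians lay between the levels of the pair. They rest on families of low abundance: with a pseudocount of 5 the lower families had medians above 0 with 1.5 mM (0.12), with 3 mM (0.08) and in the control (0.26), and with a minimum mean value of 5 the median in the control was -0.01. A family chosen for a gap between 2 libraries will tend to lie between them in others, so this position alone says nothing about nitrate.

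**Figure D4:**
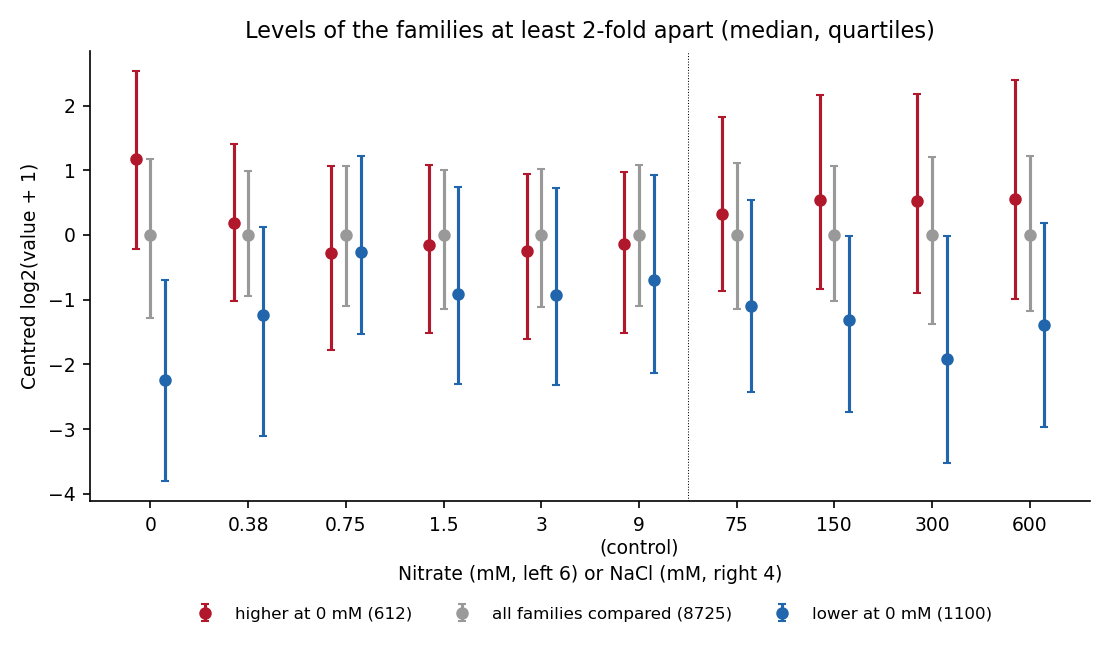
Centred log2(value + 1) in each library of the 612 families at least 2-fold higher at 0 than at 0.75 mM nitrate (red), the 1100 at least 2-fold lower (blue) and all 8725 families compared (grey); points are medians over families and bars run from the lower to the upper quartile. The red medians are 1.17 at 0 mM and 0.32 to 0.55 in the NaCl libraries, and the blue median is lowest at 0 mM, -2.24.

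At 0.38 mM nitrate, 381 of the 612 higher families (62.3%) and 650 of the 1100 lower families (59.1%) had a level between those of the pair, against 2753 of all 8725 families (31.6%). Families chosen for a gap of at least 2-fold leave more room between their levels in the pair. Larger shares than over all families therefore follow from the choice and say nothing about 0.38 mM. The position of 0.38 mM differed between the groups. The median family of the higher group lay 0.24 of the way from its level at 0.75 mM to that at 0 mM, and the median family of the lower group 0.65 of the way. Among the lower families 259 (23.5%) were lower still at 0.38 than at 0 mM, and among the higher families 66 (10.8%) were higher still. Because 0.38 mM carries an RAA code, a difference of that library from the pair may go with the code as well as with nitrate, and the 2 cannot be told apart.

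The following contrasts share no library with the pair and were set beside it. Between 0.38 mM nitrate and the mean of 1.5, 3 and 9 mM, the higher families had a median difference of 0.27 and the lower families of -0.45, against 0.01 over all families. In that contrast 38.3% of the lower families were at least 2-fold lower at 0.38 mM, against 13.5% of all families, and 21.1% of the higher families were at least 2-fold higher, against 12.2%. Between 600 and 75 mM NaCl the medians were 0.09 for the higher families, -0.33 for the lower and 0.01 for all. There 22.5% of the higher families were at least 2-fold higher at 600 mM and 12.4% lower. Of the lower families 28.2% were at least 2-fold lower and 12.1% higher, against 11.2% and 11.5% of all families. Between 75 mM NaCl and the mean of 1.5, 3 and 9 mM nitrate the medians were 0.37, -0.34 and -0.02. At 75 mM NaCl 22.4% of the higher families were at least 2-fold higher, against 4.97% of all families. Of the lower families 10.7% were at least 2-fold lower there, against 3.01% of all families, and 9.55% were at least 2-fold higher. Over the 8725 families, the difference of the pair had a Pearson r of 0.292 with the first contrast, 0.206 with the second and 0.265 with the third (Spearman rho 0.135, 0.125 and 0.361). Families are not independent replicates, both contrasts against 1.5, 3 and 9 mM share those libraries, and abundance enters all of them, so these are descriptions. The contrast of 75 mM NaCl has no labelled step to nitrate limitation, and it sets a library of code c3 against libraries of codes c8, c1 and c2, as the pair sets c6 against c7.

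Most of the families near absent on one side were near absent without nitrate. A value of at least 5 with 0.75 mM and under 1 without nitrate was found in 140 families (1.6% of those compared), and the reverse in 10 (0.115%). The 140 families had a median value of 11.16 with 0.75 mM, with a range of 5.01 to 307.71, and of 0.26 without nitrate, where 26 were listed at 0. At 0.38 mM, 75 of them were also under 1 and 24 were at least 5. In the replete cultures fewer were under 1: 23 with 1.5 mM, 24 with 3 mM and 11 in the control, where 76 were at least 5. Under NaCl, 12, 35, 76 and 53 of the 140 were under 1 from 75 to 600 mM. Listed at 0 were 17 of the 140 with 0.38 mM nitrate, and 1, 21, 27 and 25 from 75 to 600 mM NaCl. Of all families compared, 2.66% were listed at 0 with 0.38 mM nitrate. Under NaCl it was 0.436%, 2.77%, 1.98% and 3.11% from 75 to 600 mM. Over all families compared, the lower quartile of values was 9.29, 11.23, 7.77 and 7.83 from 75 to 600 mM NaCl. It was 8.53 with 0.38 mM nitrate, and 7.82, 8.71 and 8.11 from 1.5 to 9 mM. The low end of whole libraries thus differed too. The counts under 1 or at least 5 are not set against a share over all families, so libraries cannot be ranked by them.

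The 10 families of the reverse kind had values of 5.6 to 25.68 without nitrate and of 0.07 to 0.77 with 0.75 mM. All 10 were under 1 with 1.5 mM, 8 with 3 mM and 9 in the control, with no share of all families under 1 set beside these counts. At 600 mM NaCl 6 of the 10 were at least 5, with 5 at 300 mM, 3 at 150 mM and 2 at 75 mM. With 1.5, 3 and 9 mM nitrate 0 of the 10 were at least 5, and with 0.38 mM 2 were. Over all families compared, the lower quartile of values was 9.29, 11.23, 7.77 and 7.83 from 75 to 600 mM NaCl. It was 7.82, 8.71 and 8.11 from 1.5 to 9 mM nitrate. Most families were thus at least 5 in all of these libraries. The 10 were chosen for low values at 0.75 mM nitrate, and what their counts owe to NaCl was not tested. Among the families compared, 73 (0.837%) were listed at 0 without nitrate, with values of 2.04 to 158.1 with 0.75 mM, and 3 (0.0344%) were listed at 0 with 0.75 mM, with values of 2.02 to 3.31 without nitrate. Such a family passed the minimum mean only through a value of 2 or more on the other side, so these counts describe the families kept, while of all 10122 families 802 and 783 were listed at 0. A value listed at 0 can be a failed estimate, and no fold is given for these.

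For the families furthest apart, the values at 0 and 0.75 mM are fixed by the choice, and those of the other libraries are given beside them. The 28 families at least 32-fold lower at 0 mM had a median value of 0.74 there, 0.96 with 0.38 mM and 118.29 with 0.75 mM. Their median was 42.34 with 1.5 mM, 56 with 3 mM and 92 in the control, and 58.78 with 75 mM, 9.36 with 150 mM, 17.66 with 300 mM and 5.53 with 600 mM NaCl. Among the libraries not used to choose them, their median was lowest at 0.38 mM nitrate and highest in the control. The library of 0.38 mM is RAA-coded, so its nitrate and its code cannot be told apart. Listed at 0 were 6 of the 28 families there and 7 with 150 mM NaCl, the other RAA-coded library. With 300 and 600 mM NaCl 2 and 3 of them were. The 21 families at least 8-fold higher at 0 mM had a median value of 44.06 there, 10.03 with 0.38 mM and 2.81 with 0.75 mM, and of 1.7 with 1.5 mM, 1.94 with 3 mM and 2.46 in the control. Their median in the NaCl libraries was 10.97, 14.08, 9.09 and 15.57 from 75 to 600 mM, each above the median at every nitrate concentration of 0.75 mM or more.

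Families whose identifiers share the number before the suffix were taken as 1 group, although what the shared number stands for is not stated. Of 232 such groups with at least 2 families compared, 165 had 0 families at least 2-fold apart and 65 had 1. In all, 69 of the 486 families in these groups (14.2%) were 2-fold apart or more, against 19.6% of all families compared. The remaining 2 groups are named for their small number, after their values were seen. In group 1765 both families were lower at 0 mM. Family 1765_c0 had 237.74 without nitrate and 1706.36 with 0.75 mM, a difference of -2.91, and 1765_c2 had 57.79 and 144.11, a difference of -1.38. In group 3793 the families went opposite ways. The value of 3793_c0 was 12.97 without nitrate and 63.52 with 0.75 mM, a difference of -2.28, and that of 3793_c1 was 90.82 and 41.83, a difference of 1.03. Over the 232 groups the median gap between the highest and the lowest difference of a group was 0.69. Families of 1 group may share reads, and the sources used here do not say how the authors divided such reads.

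Set beside the pairs of neighbouring concentrations, the step from 0.75 to 0 mM, which spans 0.38 mM, was one of the larger ones in nitrate. It separated 19.6% of families by at least 2-fold, with an SD over families of 1.00 on the log2 scale. The step from 1.5 to 0.75 mM separated 13.1% (SD 0.81), with 7.77% higher and 5.34% lower at 0.75 mM, so there the higher families were the more numerous. Between 3 and 1.5 mM 0.421% were separated (SD 0.28), the lowest share of these pairs, although those cultures differ in nitrate and are not replicates. Both steps through 0.38 mM separated more families than the whole step that spans them, and both use the RAA-coded library of 0.38 mM. From 0.75 to 0.38 mM it was 20.6%, with 8.86% higher and 11.7% lower at 0.38 mM, and from 0.38 to 0 mM it was 24.5%, with 10.2% higher and 14.3% lower at 0 mM. The largest share was found between 300 and 600 mM NaCl, 28.1%, with 20.4% higher and 7.7% lower at 600 mM. No difference between these steps has a test, since each sets single libraries against each other and neighbours share a library.

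**Figure D5:**
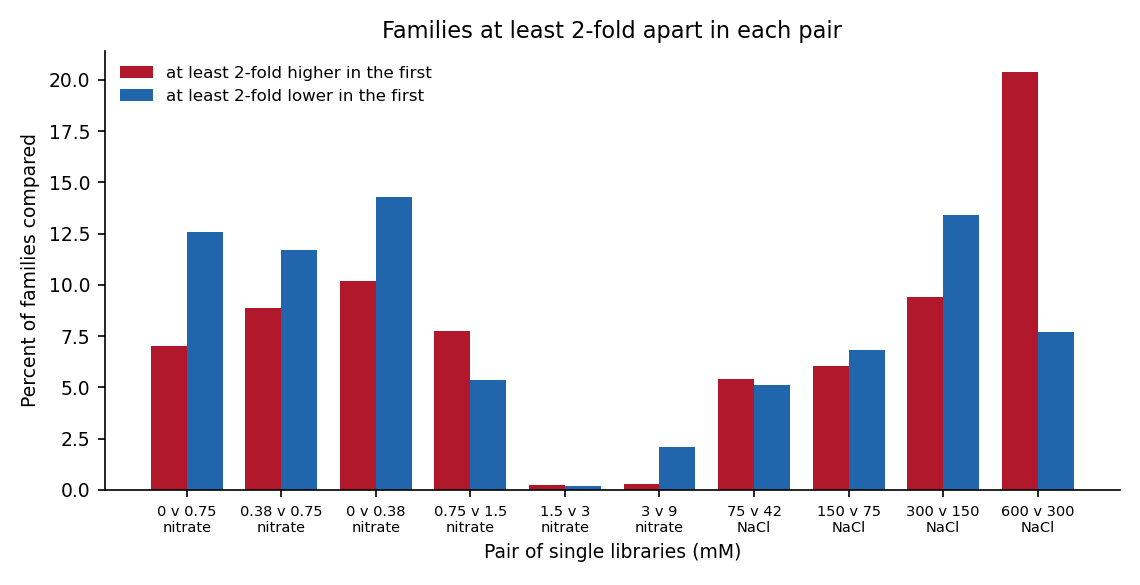
Percent of families compared that were at least 2-fold higher (red) or lower (blue) in the first library of each pair than in the second, for 10 pairs named on the horizontal axis by their nitrate or NaCl concentrations in mM; each bar rests on 1 library a side. The pair of 0 and 0.75 mM has 7.01% higher and 12.6% lower, and the pair of 1.5 and 3 mM has 0.222% and 0.199%.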

How the data were processed

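The authors deposited 1 value per scaffold family and library, recorded here as a signal: values are never negative, have 2 decimals and sum to different totals, as expression levels scaled for length and depth do. The sources used here do not say whether they are FPKM or TPM, nor which reference sequences, family definition and filters were used. Bowtie 0.12.8, RSEM 1.2.0 and edgeR 3.0.8 are named, per the submitters' processing notes, with no role or order. Poly(A) RNA was selected after hot phenol extraction and prepared with an Illumina mRNA kit, per the labels' protocols.

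Differences of log2(value + 1) were computed in Python 3.11.15 with pandas 2.3.3, for families whose value averaged 1 or more over 0 and 0.75 mM nitrate, each library centred on its median family. A family was counted at 2-fold or more. With 1 library per condition there was no test and the depth is unknown. The computation was tested on simulated data with planted changes. These were planted only in families that were not of low value, so this checks the arithmetic and not the calls among low families. Named families were 2 in each direction: by the largest difference at a mean of at least 5, and by the largest change in share. Gene lists could not be matched. The comparison, families and lists were chosen with earlier results of these data known. Alternatives covered scaling, filter, pseudocount, threshold and the place of 0.38 mM.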

Additional observations from a re-analysis of the deposited data

How the results depend on the processing

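Each result is a difference between single libraries, and read depth is unknown. A result was taken as moved beyond a factor of 1.5 (counts, shares) or the same on the log2 scale. Of the families at least 2-fold apart, 612 higher and 1100 lower, the higher count was 357 with equal library totals, 326 with the mean of 0 and 0.38 mM as the low side and 402 with a pseudocount of 5, where the lower count was 635. With a 4-fold threshold 75 were higher and 392 lower. The other alternatives stayed within 1.5 times.

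The share of the higher families at 0.75 mM (12.9%) was 5.32% with equal totals, 7.87% with equal totals without the 50 most abundant families and 3.03% with centring in bins of abundance, added after the data were seen. At 0 mM (26.8%) it was 13.1% with equal totals and 8.19% with bins. The share of the lower families at 0 mM (3.08%) was 4.8% with equal totals. The median difference of the 50 families most abundant elsewhere was 0.85, ran from 0.46 to 0.92 under the other settings, and was -0.08 with 0.38 in place of 0 mM.

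Median levels of the lower families rest on low-abundance families. With a minimum mean of 5 they were -0.63 with 0.38 mM, -0.18 with 1.5 mM, -0.18 with 3 mM and -0.01 in the control, and -0.40 with 75 mM and -1.08 with 300 mM NaCl. With a pseudocount of 5 they were -0.52 with 0.38 mM, and changed sign at 1.5 mM (0.12), 3 mM (0.08) and in the control (0.26). Under NaCl they were then -0.09 with 75 mM, -0.68 with 150 mM, -0.78 with 300 mM and -0.52 with 600 mM, and the higher families had 1.22 with 300 mM and 1.32 with 600 mM. The cause was not tested.

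The differences of the named families kept their direction under every setting. They were chosen for large changes in the same pair, so a direction kept under other scalings follows largely from the choice. The ranges were 0.39 to 6.12 for 4792_c0, 0.31 to 1.78 for 233_c0, -8.13 to -5.36 for 2647_c0 and -8.34 to -4.24 for 52_c0. The ends of 0.39, 0.31, -5.36 and -8.34 came with 0.38 in place of 0 mM. No paired analysis was possible because each condition had 1 library and the labels give no replicate numbers, and for the same reason no replicate could be left out.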
